A study of Mus musculus with 9 samples.

Results

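The interferon response genes are 36 genes that cells switch on after sensing viral RNA or receiving interferon. They were taken by gene symbol, and each of the 36 matched 1 row among the 55451 genes measured. Their RNA levels were followed in 9 libraries of HEI-OC1 cells, a line grown from immortalised mouse organ of Corti. The 3 groups of 3 libraries each were compared with each other. The c915dup cells had been transduced with LMX1A c.915dup, a frameshift form of the human LIM-homeodomain transcription factor LMX1A. The WT cells had been transduced with the wild-type form of LMX1A, and the EV cells with the empty vector. All 3 groups share the line, the transduction and the culture in serum-containing DMEM, and the growth protocol in the labels mentions no added interferon. The vector, the promoter that drives LMX1A and whether the cells were a clone or a pool are not stated in the labels. HEI-OC1 descends from a mouse that carries a temperature-sensitive large T antigen under an H-2Kb promoter, which interferon gamma can induce. Nothing in the labels marks the 3 libraries of a group as separate cultures. The p-values measure the spread between libraries, which may be technical.

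Interferon signalling begins when sensors such as RIG-I and MDA5 recognise foreign RNA and activate IRF transcription factors, which turn on interferons and some target genes directly. Secreted interferon then binds receptors on the same and neighbouring cells, and the JAK kinases at these receptors activate STAT proteins, which act together with IRF9. The resulting complex binds interferon-stimulated response elements in promoters and induces antiviral effectors, chemokines, feedback inhibitors and the machinery of antigen presentation.

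The deposited values carry no unit and were taken as FPKM, fragment counts scaled to gene length and library size. On that reading levels can be compared between genes. Depth estimated from the smallest steps between low values was 13.4 to 16.5 per library, in units of 1e+06 fragments, and 11582 to 11884 genes reached 1 FPKM. LMX1A stood at 169.6, 150.2 and 149 FPKM in c915dup libraries and at 133, 132 and 131 FPKM in WT libraries, and it was listed at 0 in the 3 EV libraries. The libraries numbered 1 in their column names, 1 in each group, stood apart from the other 6. The first principal component, with 42.5% of the variance, separated them, and mitochondrial genes took 4.36% to 5.49% of their FPKM, against 1.69% to 2.17% in the others. Results are therefore also given with a term for these libraries in the model and without them. Of 12 hair cell markers, 11 were below 1 FPKM in every library and 6, among them Atoh1, Pou4f3 and Otof, were at 0, which goes against the label of a cochlear hair cell line. The remaining marker, Myo6, had 6.44 to 7.73 FPKM. Of 6 supporting cell markers, 4 were below 1 FPKM in every library. The 6 mesenchymal markers, among them Col1a1 and Vim, summed to between 1629 and 1857 FPKM per library. Of 12 markers of macrophages and other immune cells, 11 were below 1 FPKM in every library, Ptprc among them, and 4 (Adgre1, Cd3e, Tyrobp and Spi1) were at 0. Their summed level was 3.13 to 4.37 FPKM in c915dup libraries, 2.09 to 3.78 in WT libraries and 2.54 to 3.46 in EV libraries, most of it Cd68.

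The interferon response genes were expressed in every group, EV included. Of the 36, 34 reached 1 FPKM in at least 3 of the 9 libraries and were tested. The median level of the tested genes was 16.2 FPKM, against 10.5 FPKM over all 11933 genes tested. In all, 25 genes averaged above 10 FPKM and 5 above 100 FPKM. Trim25, the ubiquitin ligase that activates RIG-I, was at 0 in all c915dup and WT libraries and at 0.0432, 0 and 0.00743 FPKM in EV libraries. Mx1, a dynamin-like GTPase active against influenza virus, stayed between 0.240 and 0.463 FPKM. Together the 36 genes made up 0.510% to 0.542% of all FPKM in c915dup libraries, 0.512% to 0.573% in WT libraries and 0.478% to 0.520% in EV libraries. In each group the library numbered 1 had the highest share. The others had 0.510% in c915dup cells, 0.512% to 0.518% in WT cells and 0.478% to 0.481% in EV cells. The ratio of the highest to the lowest library was 1.09 for Xaf1, a pro-apoptotic interferon target, and 2.30 for Mx2, the widest among the tested genes.

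**Figure D1:**
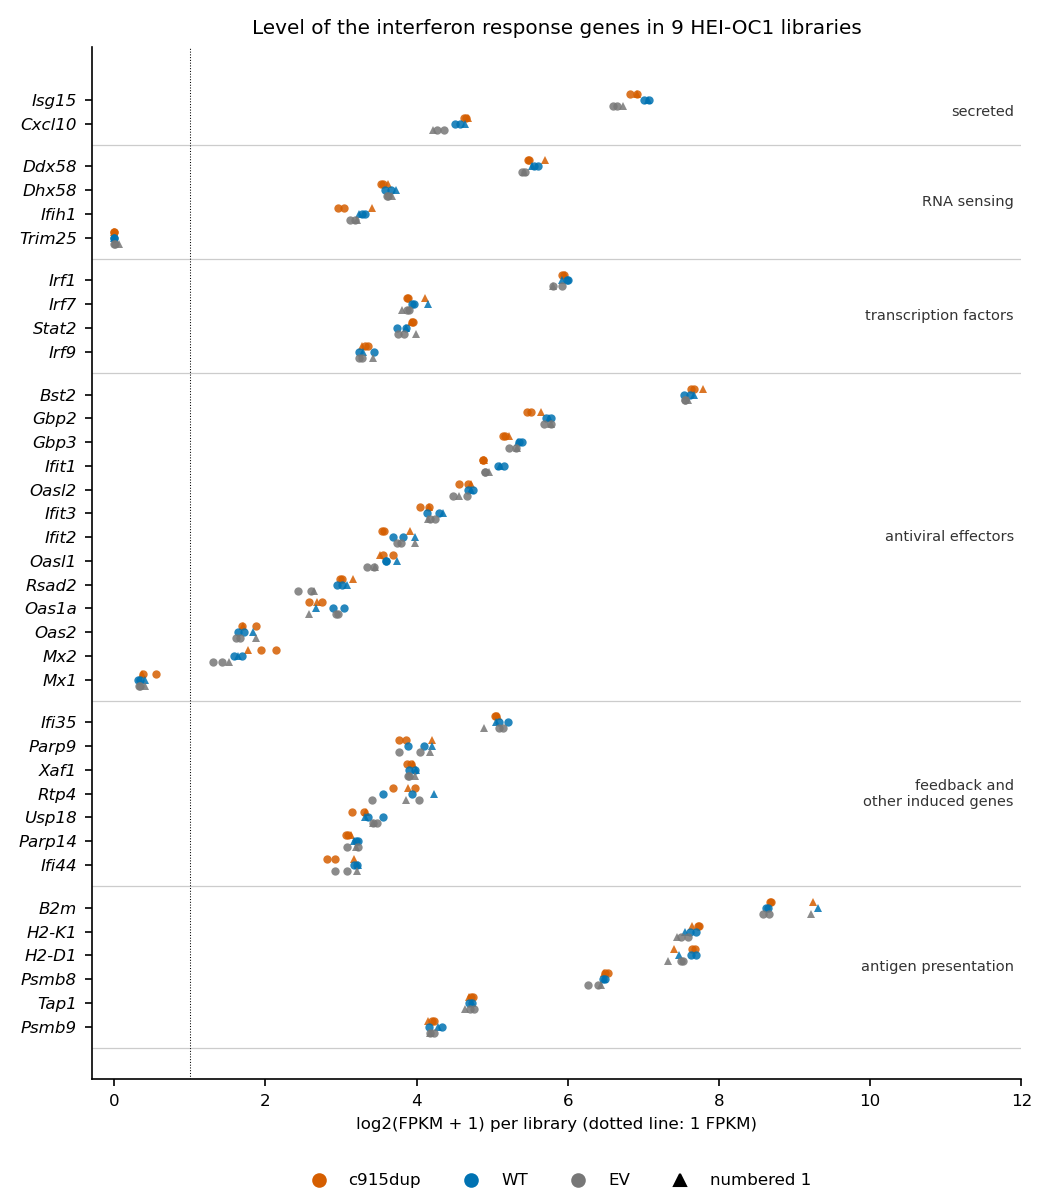
Level of each of the 36 interferon response genes, as log2(FPKM + 1), in each of the 9 libraries; colours give the group, triangles the libraries numbered 1, and genes are ordered by role and mean level. Most genes lie well above the dotted line at 1 FPKM in all groups, Trim25 and Mx1 lie below it, and for most genes the 3 groups lie close together.

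Antigen presentation genes held the highest levels. B2m, the light chain of MHC class I molecules, had 608, 409 and 412 FPKM in c915dup libraries, 632, 395 and 402 FPKM in WT libraries and 596, 383 and 406 FPKM in EV libraries. In each group the library numbered 1 was the high one, and the groups overlapped. H2-K1, an MHC class I heavy chain, had 199, 209.8 and 211 FPKM in c915dup libraries, 186, 207 and 196 FPKM in WT libraries and 174, 192 and 180.2 FPKM in EV libraries. All c915dup libraries lay above all EV libraries, and the WT libraries overlapped both. H2-D1, the second class I heavy chain, had 168, 204 and 199 FPKM in c915dup libraries, 176, 206 and 197 FPKM in WT libraries and 159.5, 183 and 180.5 FPKM in EV libraries. Here the library numbered 1 was the lowest of each group, and the groups overlapped. H2-K1 and H2-D1 are close copies of each other, so the split of reads between them is uncertain. Psmb8 and Psmb9, the immunoproteasome subunits, averaged 86.6 and 17.6 FPKM, and Tap1, a subunit of the peptide transporter, averaged 25.3 FPKM. Psmb9 and Tap1 overlap by 212 bases on opposite strands, and the labels do not record whether counting used the strand.

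The tested RNA sensors and transcription factors ranged from a mean of 59.6 FPKM for Irf1 to 8.20 FPKM for Ifih1. Ddx58, which encodes RIG-I, had 50.8, 43.5 and 43.8 FPKM in c915dup libraries, 44.9, 47.8 and 45.9 FPKM in WT libraries and 41.7, 42.1 and 41.0 FPKM in EV libraries. Every c915dup and WT library lay above every EV library. Dhx58, which encodes the related sensor LGP2, had 11.3, 10.8 and 10.5 FPKM in c915dup libraries, 12.3, 11.6 and 10.97 FPKM in WT libraries and 11.8, 11.2 and 11.3 FPKM in EV libraries, and the groups overlapped. Ifih1, which encodes MDA5, averaged 8.20 FPKM. Irf1, an activator of MHC class I and other interferon gamma targets, had 61.4, 60.8 and 59.4 FPKM in c915dup libraries, 59.7, 62.4 and 63.2 FPKM in WT libraries and 54.8, 59.9 and 55.1 FPKM in EV libraries. EV libraries 1 and 3 lay below all others, and EV library 2 overlapped both other groups. Irf7, the amplifier of type I interferon production, had 16.3, 13.8 and 13.6 FPKM in c915dup libraries, 16.7, 14.7 and 14.3 FPKM in WT libraries and 12.99, 13.7 and 13.9 FPKM in EV libraries. The WT libraries lay above the EV libraries, and the c915dup libraries overlapped both. Stat2 and Irf9, both part of the complex that type I interferon activates, averaged 13.7 and 8.96 FPKM. Irf7 overlaps Phrf1 by 45 bases and Irf9 overlaps Rnf31 by 123 bases.

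Antiviral effectors ranged from a mean of 196 FPKM for Bst2 to 0.303 FPKM for Mx1. Bst2, or tetherin, which holds budding virus at the cell surface, had 219.8, 202 and 197 FPKM in c915dup libraries, 202, 185 and 195 FPKM in WT libraries and 191, 186 and 186 FPKM in EV libraries. The c915dup libraries lay above the EV libraries, and the WT libraries overlapped both. The other effectors that averaged above 10 FPKM were the GTPases Gbp2 and Gbp3, the RNA-binding proteins Ifit1, Ifit2 and Ifit3, and the oligoadenylate synthetase-like genes Oasl1 and Oasl2. Below 10 FPKM lay Rsad2, Oas1a, Oas2, Mx2 and Mx1, where Oas1a and Oas2 make the messenger that activates RNase L. The Oas and Ifit genes have near copies in the mouse genome, so their counts are uncertain. The 7 feedback and other induced genes averaged between 7.50 FPKM for Ifi44 and 32.6 FPKM for Ifi35, with Usp18, the inhibitor of type I receptor signalling that also removes ISG15 from proteins, at 9.38 FPKM. Ifi35 had 32.8, 31.8 and 31.98 FPKM in c915dup libraries, 32.02, 35.9 and 33.0 FPKM in WT libraries and 28.6, 32.9 and 34.2 FPKM in EV libraries. Parp9, an ADP-ribosyltransferase family member that acts with DTX3L, had 17.4, 12.6 and 13.6 FPKM in c915dup libraries, 17.4, 13.7 and 16.1 FPKM in WT libraries and 17.2, 15.4 and 12.6 FPKM in EV libraries. For both Ifi35 and Parp9 the 3 groups overlapped. Parp9 overlaps Dtx3l by 682 bases, Usp18 overlaps Gm44148, and Rtp4 overlaps Masp1 by 525 bases and Gm45338 over more of its length.

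Isg15, Cxcl10 and Rsad2 were the genes that passed the test in a comparison with EV. ISG15 is a ubiquitin-like protein that is attached to other proteins and also secreted, CXCL10 is a chemokine that attracts activated T cells, and RSAD2, or viperin, makes a chain-terminating nucleotide that stops viral RNA synthesis. Their promoters are shown because type I interferon acts through short elements in such regions. The 250 bases before each annotated start, from RefSeq on GRCm38.p6, are written 5′ to 3′ on the gene's strand, and all 3 genes lie on the minus strand. They cover chr4:156200819-156201068 for Isg15, chr5:92348890-92349139 for Cxcl10 and chr12:26456453-26456702 for Rsad2. Capitals mark matches, on either strand, to an interferon-stimulated response element core (GAAA, any 2 bases, GAAA) and to a kappa-B type motif (GGG, any 3 bases, TTCC).
Isg15: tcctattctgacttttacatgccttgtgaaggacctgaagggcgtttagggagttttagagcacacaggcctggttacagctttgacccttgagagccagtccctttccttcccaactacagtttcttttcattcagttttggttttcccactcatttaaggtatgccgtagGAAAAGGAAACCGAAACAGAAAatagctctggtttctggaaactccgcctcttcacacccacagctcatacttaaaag
Cxcl10: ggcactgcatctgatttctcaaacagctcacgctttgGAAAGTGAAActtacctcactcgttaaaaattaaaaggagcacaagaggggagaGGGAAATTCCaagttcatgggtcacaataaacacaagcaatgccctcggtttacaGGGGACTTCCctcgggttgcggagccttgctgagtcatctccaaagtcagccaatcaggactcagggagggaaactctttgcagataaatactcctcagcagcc
Rsad2: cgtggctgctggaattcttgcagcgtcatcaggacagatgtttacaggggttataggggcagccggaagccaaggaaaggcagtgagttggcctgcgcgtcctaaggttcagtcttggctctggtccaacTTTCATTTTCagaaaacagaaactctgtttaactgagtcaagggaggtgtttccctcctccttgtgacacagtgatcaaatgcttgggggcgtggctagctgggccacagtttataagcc
The Isg15 window held 3 overlapping matches to the response element core, between 78 and 57 bases before the start. The Cxcl10 window held 1 such match at 213 to 204 bases before the start, and kappa-B type matches at 159 to 150 and at 104 to 95 bases before it. The Rsad2 window held 1 response element match, on the opposite strand, at 120 to 111 bases before the start. A window was available for 28 of the 36 genes, and Dhx58, Usp18, Rtp4, Parp9, Oas2, Mx2, Parp14 and Mx1 had none. Among the 28 windows, 11 (39.3%) held the response element core, against 3.46% of 27025 genes with windows of the same length. The kappa-B type motif was found in 5 of 28 (17.9%), against 5.31% of all genes. A gamma-activated sequence (TTC, any 3 bases, GAA) was also found in 5 of 28 (17.9%), against 8.13% of all genes. None of its matches lay in the 3 windows printed here. Response element matches overlapped each other in the windows of Isg15, Bst2, Gbp3 and Oas1a, and none overlapped a kappa-B type match in any of the 28 windows. A match describes the letters in the window only.

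In WT cells, Isg15 was higher than in EV cells, and it was the 1 gene of the 34 tested that passed. Isg15 (chr4:156199424-156200818) had 132, 134 and 128 FPKM in WT libraries, against 105, 96.2 and 99.1 FPKM in EV libraries. Every WT library lay above every EV library. The means were 131 ± 3.0 FPKM in WT cells and 100.1 ± 4.5 FPKM in EV cells (SD, n = 3 each), and the difference was 0.39 ± 0.05 (SE) on the log2(FPKM + 1) scale, with an adjusted p of 0.0128 by limma across all 11933 genes. Across all genes 0.352% passed in this comparison, and 0.302% passed as higher. In bulk RNA, a change in the share of cells that express a gene and a change in RNA per cell cannot be told apart.

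Rsad2 and Cxcl10 had values in the same direction in WT cells. Rsad2 (chr12:26442746-26456452) had 7.47, 7.06 and 6.68 FPKM in WT libraries, against 5.26, 5.10 and 4.37 FPKM in EV libraries. Its difference was 0.45 ± 0.08 (SE) on the log2 scale, with an adjusted p of 0.0814 by limma, so it missed the threshold of 0.05. Cxcl10 (chr5:92346638-92348889) had 24.0, 22.7 and 21.7 FPKM in WT libraries, against 17.6, 18.4 and 19.5 FPKM in EV libraries, a difference of 0.29 ± 0.06 (SE) with an adjusted p of 0.131. For both genes every WT library lay above every EV library. Rsad2 passed as well as Isg15 with the replicate number as a block (limma adjusted p = 0.012 and 0.0022). In the block fit 0.804% of all genes passed and 0.561% passed as higher. Apart from the libraries numbered 1, the numbers were not shown to pair the WT and EV libraries. With a term for the libraries numbered 1, Isg15, Rsad2 and Cxcl10 rose (limma adjusted p = 0.00025, 0.0048 and 0.023), where 1.22% of all genes passed and 0.804% passed as higher. Without the libraries numbered 1, Isg15 rose by 0.42 on the log2 scale with an adjusted p of 0.0036 by limma. Rsad2 and Cxcl10 had differences of 0.46 and 0.22 in that fit of fewer libraries and missed the threshold (limma adjusted p = 0.063 and 0.139), where 0.696% of all genes passed and 0.511% passed as higher.

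Apart from Isg15, Rsad2 and Cxcl10, no gene of the list passed between WT and EV cells with group means, the block or the term. Most of the list still had higher means in WT cells. Of the 34, 31 had a WT mean above the EV mean on the log2 scale, with a median difference of 0.07, where the median over all genes was -0.0047 and 47.8% of genes lay above 0. For 12 of the 34 every WT library lay above every EV library, and for none did every WT library lie below, against 6.7% and 6.17% of all genes. The 12 comprised Isg15, Cxcl10, the sensors Ddx58 and Ifih1, the transcription factor Irf7, the effectors Rsad2, Ifit1, Mx2, Gbp3, Oasl1 and Oasl2, and the proteasome subunit Psmb8. Stat2, Usp18 and Ifit2 were the 3 genes below 0. Without the libraries numbered 1, Stat2 and Usp18 were at 0.0042 and 0.0023 and Ifit2 stayed at -0.018. Tap1 and Ifit3 then turned to -0.027 and -0.0015. At an unadjusted p under 0.05, 8 of the 34 were counted, against 6.13% of all genes. The Isg15 call was lost without WT library 1 or 2 or EV library 2 or 3, where its adjusted p reached 0.0966, while with the term for libraries numbered 1 it held in 9 of 9 fits that left out 1 library.

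In c915dup cells, Cxcl10 and Rsad2 were higher than in EV cells, and they were the 2 genes of the 34 that passed. Across all genes 1.09% passed in this comparison, and 0.964% passed as higher. Cxcl10 had 24.7, 23.8 and 24.2 FPKM in c915dup libraries, against 17.6, 18.4 and 19.5 FPKM in EV libraries. The means were 24.2 ± 0.44 FPKM in c915dup cells and 18.5 ± 0.97 FPKM in EV cells (SD, n = 3 each), and the difference was 0.37 ± 0.06 (SE) on the log2 scale with a limma adjusted p of 0.0170. All 3 c915dup libraries lay above all 3 EV libraries. Rsad2 had 7.96, 6.93 and 7.10 FPKM in c915dup libraries, against 5.26, 5.10 and 4.37 FPKM in EV libraries. The difference was 0.50 ± 0.08 (SE) on the log2 scale with a limma adjusted p of 0.0231, and again the groups did not overlap. Both calls were lost in a fit of the 2 groups alone and with no filter on low values. The Cxcl10 call was also lost without c915dup library 3 or 4 or EV library 1 or 2, and the Rsad2 call without WT library 2, any c915dup library, or EV library 2 or 3. Both held in 9 of 9 fits that left out 1 library when the term for libraries numbered 1 was kept.

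Isg15 and Mx2 lay higher in c915dup cells without passing. Isg15 had 120.0, 119.6 and 113 FPKM in c915dup libraries, against 105, 96.2 and 99.1 FPKM in EV libraries, a difference of 0.23 ± 0.05 (SE) with a limma adjusted p of 0.0863. Mx2, which the annotation classes as a polymorphic pseudogene, had 2.40, 3.39 and 2.85 FPKM in c915dup libraries, 2.11, 2.22 and 1.99 FPKM in WT libraries and 1.85, 1.47 and 1.70 FPKM in EV libraries. The 3 groups did not overlap for Mx2, and its difference between c915dup and EV cells was 0.53 ± 0.11 (SE) with a limma adjusted p of 0.0620. At these low levels the log2(FPKM + 1) scale understates a fold change.

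With a term for the libraries numbered 1, 8 of the 34 genes changed between c915dup and EV cells, 7 upward and 1 downward, where 5.54% of all genes passed, 3.44% upward and 2.1% downward. Those that rose were Rsad2, Cxcl10, Isg15, H2-K1, Mx2, Bst2 and H2-D1, with limma adjusted p of 0.0012, 0.0022, 0.0054, 0.0105, 0.0179, 0.0431 and 0.0469 in that order. H2-K1 rose by 0.18 on the log2 scale, and Bst2 and H2-D1 by 0.13 each. Gbp2 was the gene that fell, by 0.20 with a limma adjusted p of 0.0237. Gbp2, an interferon-induced GTPase that attacks pathogen vacuoles, had 49.0, 44.9 and 43.1 FPKM in c915dup libraries, against 53.8, 53.6 and 50.5 FPKM in EV libraries. Every c915dup library lay below every EV library. When single libraries were left out with the term kept, Isg15 passed in 9 of 9 fits, H2-K1 in 7, Mx2 in 5, Gbp2 in 4, and Bst2 and H2-D1 in 2 each. Without the libraries numbered 1, Rsad2, Mx2, Cxcl10 and Isg15 rose and Gbp2 fell, where 3.38% of all genes passed, 2.06% upward and 1.32% downward. The differences of Mx2 and Gbp2 were then 0.67 and -0.24.

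By role, genes of the list lay on both sides of 0 between c915dup and EV cells. Of the 34 genes, 20 lay above 0 and 14 below, with a median difference of 0.03 on the log2 scale. Over all genes the median was -0.00029, and 49.9% of genes lay above 0. Both secreted genes lay above 0, as did 5 of 6 antigen presentation genes and 3 of 4 transcription factors. Of the 12 antiviral effectors 6 lay above and 6 below, and of the 7 feedback and other induced genes 3 lay above and 4 below. Some of these signs changed without the libraries numbered 1. Irf7, Tap1 and Ifi35 then turned to -0.0088, -0.0020 and -0.071, and Irf9 and Psmb9 to 0.070 and 0.0080. For 9 genes every c915dup library lay above every EV library, against 9.29% of all genes, and for 4 genes, Gbp2, Gbp3, Ifit1 and Usp18, every c915dup library lay below, against 7.58%. At an unadjusted p under 0.05, 9 of the 34 were counted, against 11.4% of all genes.

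**Figure D2:**
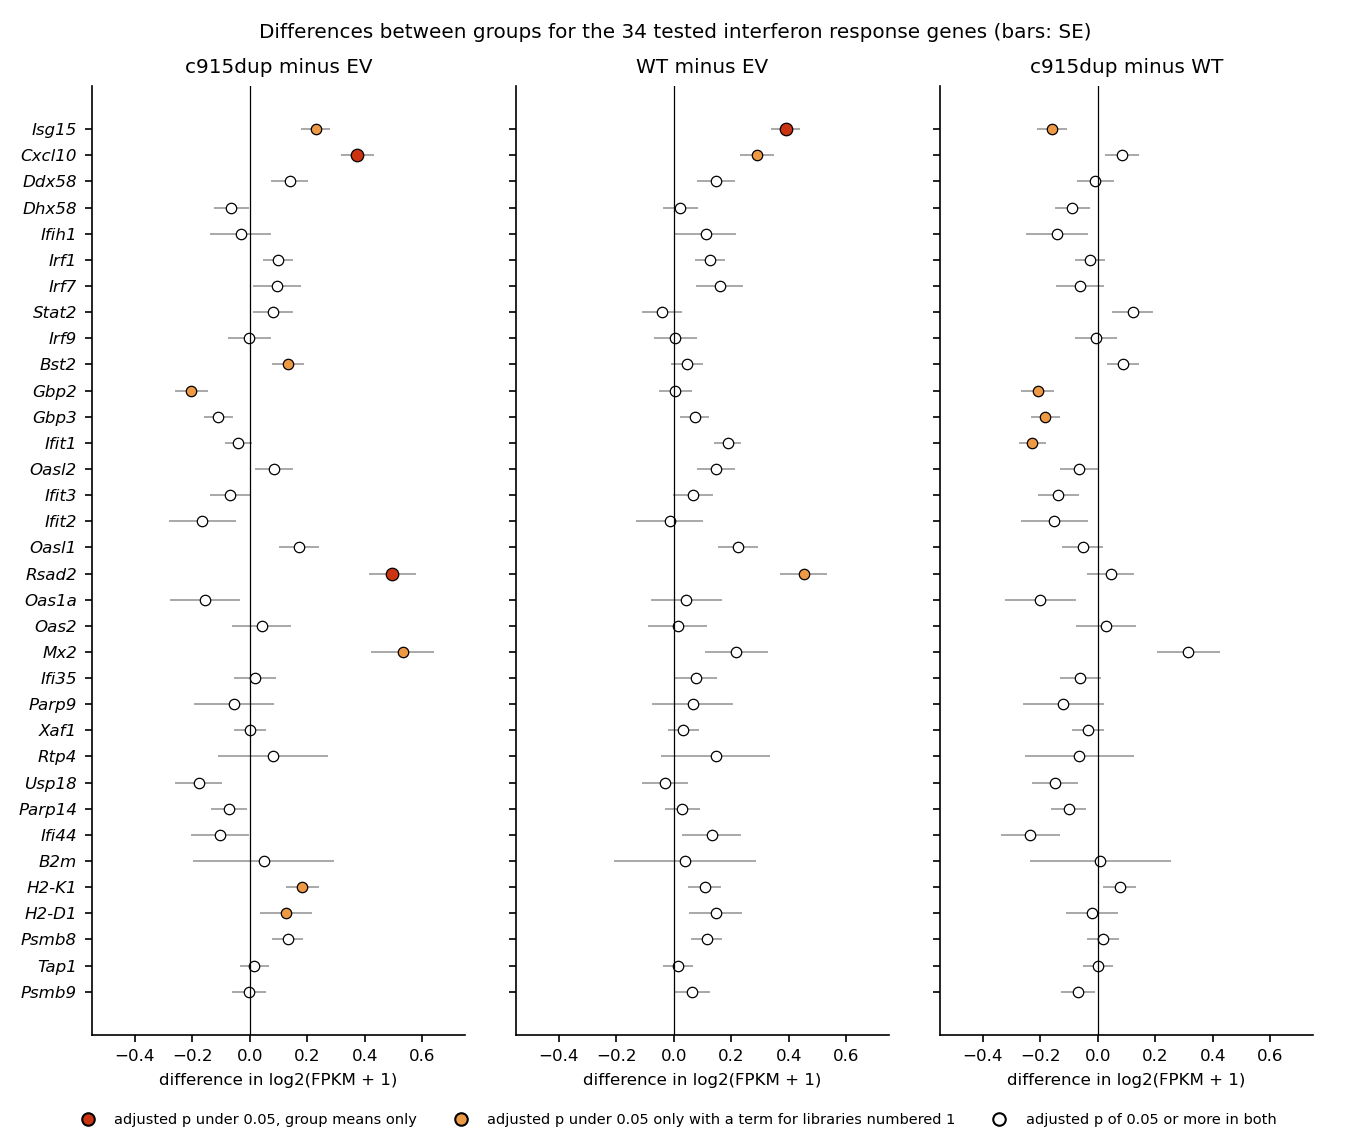
Difference between group means in log2(FPKM + 1) for the 34 tested genes in each of the 3 comparisons, with bars of 1 SE; filled points passed an adjusted p under 0.05, red with group means alone and orange only with a term for libraries numbered 1. Cxcl10 and Rsad2 are red for c915dup minus EV and Isg15 is red for WT minus EV, and no gene is red for c915dup minus WT.

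Between c915dup and WT cells no gene of the 34 passed with group means alone by limma, against 0.226% of all genes, and 6 had an unadjusted p under 0.05, against 10.4% of all genes. With a term for the libraries numbered 1, 4 genes were lower in c915dup cells and none higher, namely Ifit1, Gbp2, Gbp3 and Isg15, where 4.81% of all genes passed, 3.13% as higher and 1.68% as lower. Ifit1, which binds viral RNA that lacks the host cap methylation, had 28.6, 28.5 and 28.3 FPKM in c915dup libraries, against 33.3, 32.7 and 34.6 FPKM in WT libraries. The c915dup libraries lay close together and below all WT libraries, and the EV libraries, with 30.2, 28.9 and 28.8 FPKM, lay between. The Ifit1 difference was -0.23 ± 0.05 (SE) on the log2 scale, with a limma adjusted p of 0.109 with group means alone and 0.0128 with the term.

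Gbp2 and Gbp3, both guanylate-binding proteins, were lower in c915dup than in WT cells in that fit as well. Gbp2 had 49.0, 44.9 and 43.1 FPKM in c915dup libraries, against 53.1, 51.6 and 53.8 FPKM in WT libraries, a difference of -0.21 ± 0.06 (SE) with a limma adjusted p of 0.222 with group means alone and 0.0268 with the term. Gbp3 had 36.2, 34.4 and 35.1 FPKM in c915dup libraries, 39.4, 40.9 and 40.0 FPKM in WT libraries and 39.3, 38.7 and 36.3 FPKM in EV libraries. Its difference between c915dup and WT cells was -0.18 ± 0.05 (SE), with a limma adjusted p of 0.222 with group means alone and 0.0356 with the term. For Gbp2 and Gbp3 all c915dup libraries lay below all libraries of the other groups. Isg15 differed by -0.16 ± 0.05 (SE) between c915dup and WT cells, with a limma adjusted p of 0.290 with group means alone and 0.0356 with the term. Its levels ran without overlap, with the WT libraries highest, the c915dup libraries between and the EV libraries lowest. When single libraries were left out with the term kept, Ifit1 passed in 7 of 9 fits, Gbp2 in 5, Gbp3 in 4 and Isg15 in 3. Without the libraries numbered 1, Gbp2 and Ifit1 fell by 0.26 and 0.24 (limma adjusted p = 0.035 and 0.043), where 2.92% of all genes passed and 1.35% passed as lower.

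Most of the list had lower means in c915dup than in WT cells. Of the 34 genes, 10 lay above 0 and 24 below, with a median difference of -0.06 on the log2 scale. Over all genes the median was 0.0016, and 50.6% of genes lay above 0. The 24 included all 7 feedback and other induced genes and 8 of 12 antiviral effectors. Of these 24, Rtp4, Oasl1 and H2-D1 were at 0.08, 0.03 and 0.0028 without the libraries numbered 1. For 6 genes every c915dup library lay below every WT library, against 6.85% of all genes. They were Gbp2, Gbp3, Ifit1, Isg15, Parp14 and Ifi44. For Mx2 and Stat2 every c915dup library lay above every WT library, against 9.23% of all genes. Stat2 had 14.3, 14.4 and 14.5 FPKM in c915dup libraries, against 13.5, 13.5 and 12.3 FPKM in WT libraries. The 3 comparisons share their libraries, so the differences of c915dup and of WT cells from EV are not independent, and those from EV share the same 3 EV libraries.

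**Figure D3:**
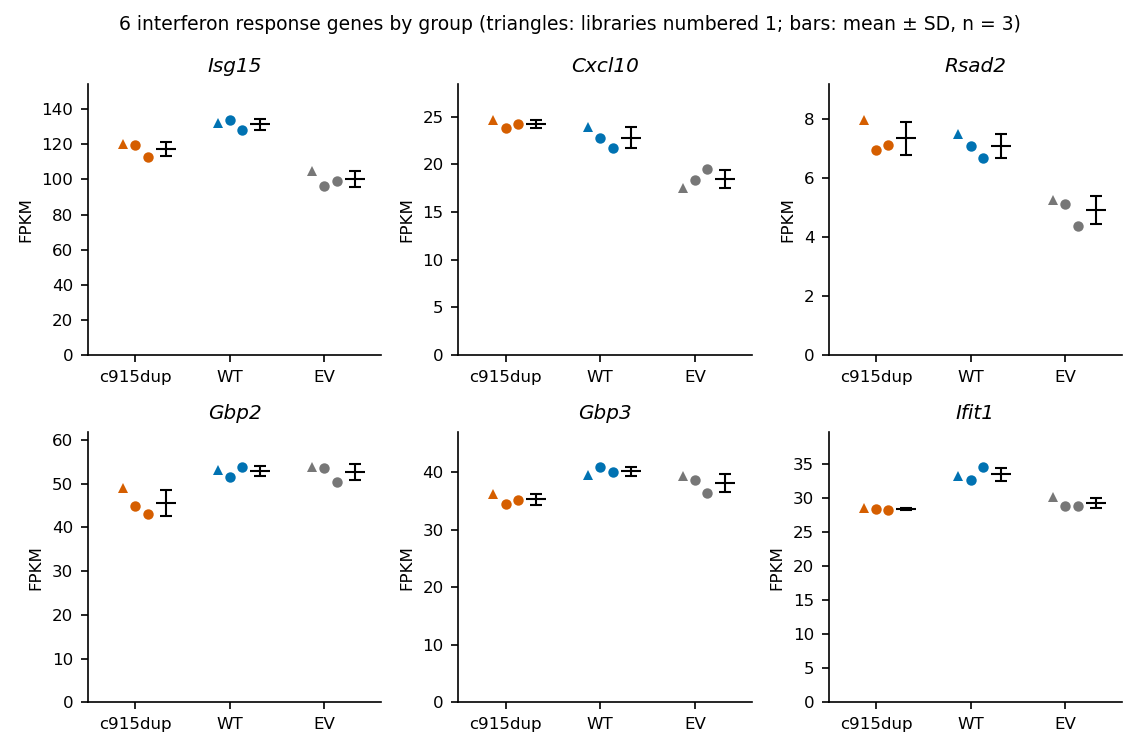
FPKM of Isg15, Cxcl10, Rsad2, Gbp2, Gbp3 and Ifit1 in each library of the 3 groups, with the mean ± SD of each group (n = 3); triangles are the libraries numbered 1. In the upper row the c915dup and WT libraries lie above the EV libraries, and in the lower row the c915dup libraries lie lowest.

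The libraries numbered 1 differed from the other 6 in 6 of the 34 genes (17.6%), which is below the 31.1% of all genes that passed in this comparison, 21% as higher and 10% as lower. Of the 6, 3 were antigen presentation genes. B2m was higher in them, with a mean of 612 FPKM against 401 FPKM in the other 6 and a difference of 0.61 ± 0.03 (SE) on the log2 scale (limma adjusted p = 2.6e-07). H2-D1 and H2-K1 were lower in them, with differences of -0.21 ± 0.03 and -0.10 ± 0.03 (SE) and limma adjusted p of 0.00026 and 0.029. The light chain and the heavy chains of MHC class I moved in opposite directions between these libraries. Ifit2 rose by 0.27 with a limma adjusted p of 0.0025. Its levels were 14.1 to 14.8 FPKM in the 3 libraries numbered 1 and 10.6 to 13.1 FPKM in the other 6. Parp9 rose by 0.29 and Bst2 by 0.09 (limma adjusted p = 0.0094 and 0.035), and the Bst2 call was lost when libraries were rescaled by the median ratio or by quantiles. The Bst2 and H2-K1 calls each held in 3 of 9 fits that left out 1 library, and the Parp9 call was lost without c915dup library 1. The mitochondrial share of FPKM moved with these differences, and its part in them was not tested. Isg15, Cxcl10 and Rsad2 did not pass in this comparison.

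**Figure D4:**
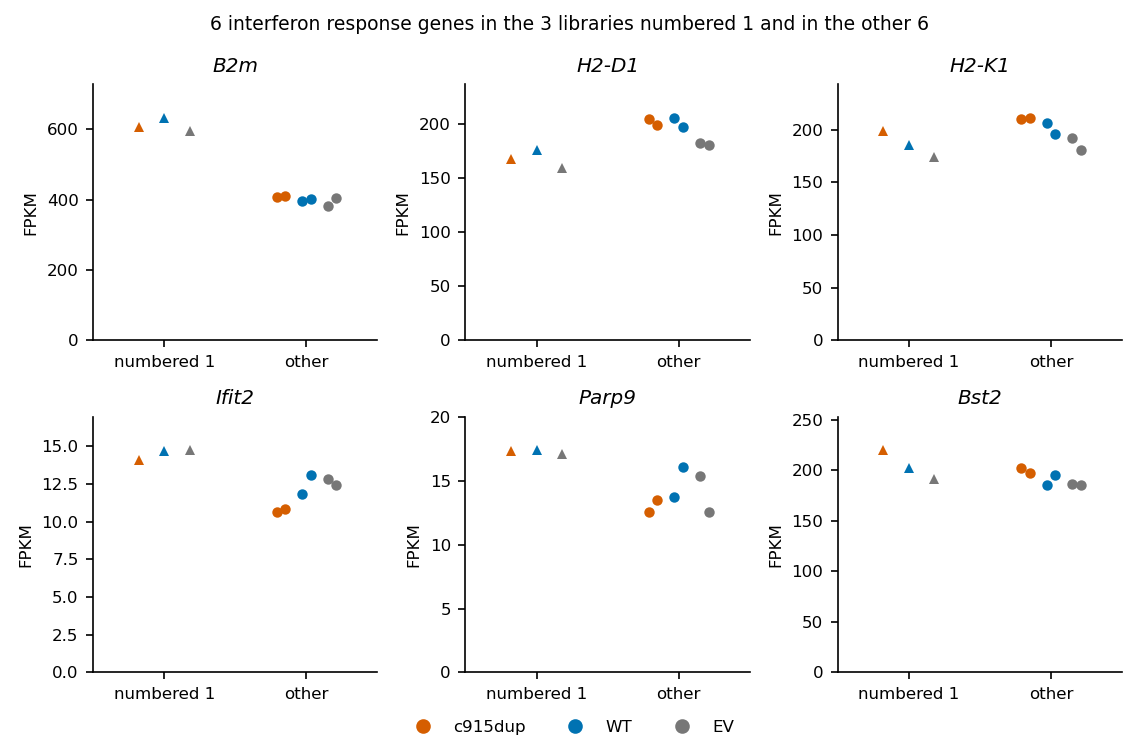
FPKM of the 6 interferon response genes that differed between the 3 libraries numbered 1 (triangles) and the other 6 (circles), with colours for the groups. B2m lies between 596 and 632 FPKM in the libraries numbered 1 and between 383 and 412 FPKM in the others, while H2-D1 lies lower in the libraries numbered 1 of each group.

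The genes upstream and downstream of the 36 were followed in a wider list of 124 interferon pathway genes, of which 123 had a row and 101 were tested. Interferons themselves were at or near 0. Ifna1, Ifna2, Ifnk, Ifnl2 and Ifnl3 were at 0 in every library, Ifnb1 reached 0.156 FPKM in 1 c915dup library, and Ifna4, Ifne and Ifng stayed at or below 0.148 FPKM. The receptors for type I and type II interferon were expressed, with Ifnar1 at 21.6 to 24.9 FPKM, Ifnar2 at 9.85 to 16.9, Ifngr1 at 20.9 to 24.7 and Ifngr2 at 14.7 to 17.4 FPKM. Ifnlr1, the receptor chain specific to type III interferon, stayed at or below 0.0270 FPKM. Of the receptor kinases, Jak1 stood at 37.6 to 44.0 FPKM, Jak2 at 10.8 to 12.7 and Tyk2 at 3.73 to 4.85 FPKM. Of the transcription factors, Stat3 stood at 23.7 to 26.4 FPKM and Irf3, the factor that first induces interferon beta, at 14.1 to 17.8 FPKM.

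Of the 101 tested genes of the wider list, 1 passed between c915dup and EV cells, and none passed between WT and EV cells or between c915dup and WT cells by limma. These counts stand beside 1.09%, 0.352% and 0.226% of all genes in these comparisons. At an unadjusted p under 0.05, 5 genes of the list were counted between WT and EV cells and 13 between c915dup and WT cells, against 6.13% and 10.4% of all genes. The gene that rose was Irf2bp2, a corepressor that binds IRF2. Irf2bp2 had 17.3, 18.3 and 17.7 FPKM in c915dup libraries, 11.87, 15.0 and 14.6 FPKM in WT libraries and 10.0, 12.3 and 12.1 FPKM in EV libraries. All c915dup libraries lay above all others, and the difference from EV was 0.59 ± 0.10 (SE) on the log2 scale with a limma adjusted p of 0.0231. That call was lost without any 1 of the c915dup or EV libraries and with no filter on low values, and it held in 9 of 9 fits with the term for libraries numbered 1. Cmpk2, a mitochondrial nucleotide kinase beside Rsad2 on chromosome 12, had the smallest p between WT and EV cells, with means of 3.47 FPKM in WT cells and 2.48 FPKM in EV cells and a limma adjusted p of 0.197. The median difference over the 101 genes was -0.0017 between c915dup and EV cells, 0.04 between WT and EV cells and -0.03 between c915dup and WT cells.

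With a term for the libraries numbered 1, 4 genes of the wider list rose between c915dup and EV cells and none fell, which is 3.96% of the list, against 5.54% of all genes called in that fit. Besides Irf2bp2 (limma adjusted p = 0.00016) they were Uba7, the enzyme that activates ISG15 for conjugation, Tbk1, the kinase that activates IRF3, and Socs3, a feedback inhibitor of JAK signalling. Uba7 had 6.91, 7.48 and 8.13 FPKM in c915dup libraries, 5.55, 6.54 and 6.24 FPKM in WT libraries and 5.43, 5.37 and 5.79 FPKM in EV libraries, with a difference between c915dup and EV cells of 0.38 ± 0.06 (SE) and a limma adjusted p of 0.0061. The c915dup libraries lay above all others. Tbk1 averaged 17.6 FPKM in c915dup cells and 14.8 FPKM in EV cells (limma adjusted p = 0.014), and Socs3 averaged 38.3 FPKM in c915dup cells and 32.9 FPKM in EV cells (limma adjusted p = 0.025). Between c915dup and WT cells, Irf2bp2, Uba7 and Tbk1 rose in that fit and Rnf213, a ubiquitin ligase induced by interferon, fell (limma adjusted p = 0.0094, 0.044, 0.045 and 0.022), again 3.96% of the list, against 4.81% of all genes. Rnf213 had 17.8, 16.2 and 16.7 FPKM in c915dup libraries, against 20.5, 19.9 and 19.9 FPKM in WT libraries, and the groups did not overlap.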

How the data were processed

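RNA from 9 libraries of HEI-OC1 cells, 3 each of c915dup, WT and EV, had been sequenced on an Illumina instrument after TruSeq library preparation from total RNA, per the labels. The submitters' processing notes name CASAVA 1.8, Trimmomatic, FastQC, HISAT2, RSEM, edgeR and the build GRCm38, with no role or order, and the series' design text names other aligners. The authors deposited 1 table of 55451 genes with no unit in its header. The values the authors deposited were taken as FPKM, fragments scaled by them to gene length and library size, from the decimals, the unequal sums of the libraries and the naming of RSEM. The c915dup columns carry the numbers 1, 3 and 4, which match the group but no single sample. The counting rule and its use of the strand are not given in the sources.

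FPKM were analysed as log2(FPKM + 1), with a pseudocount of 1, for the 11933 genes at or above 1 FPKM in 3 or more libraries. limma 3.58.1 (R 4.3.3; empirical Bayes with trend and robust settings) was fitted to all 9 libraries with group means only, two-sided, adjusted by Benjamini-Hochberg across these genes, with a threshold of 0.05. The procedure was tested on simulated data. The simulated libraries varied independently and held no difference of the libraries numbered 1, so that test does not cover this feature of the data. Alternatives were a replicate block, a term for the libraries numbered 1, leaving these or single libraries out, other filters, pseudocounts and scalings. The fits with that term that also left out 1 library were chosen after seeing the data. Same-numbered WT and EV libraries deviated together (correlation of deviations from the group means 0.62, 0.39 and 0.26, each above 0.1). So did WT library 2 with EV library 3 (0.299) and WT library 3 with EV library 2 (0.275). The check therefore sets the libraries numbered 1 apart and cannot show pairing by number among the others. Of the c915dup numbers, 2 are shared with the other groups, too few for that check. A gene was given library by library when it passed in any group comparison, with group means, the block or the term, or was among the 2 highest of its role. Of the wider list, those with the smallest p were named, and a promoter was printed for genes that passed with group means. Promoters came from RefSeq on GRCm38.p6. The genes, roles, lists and tests were chosen with earlier results of these data known. Of the wider list, some values are not reported here.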

Additional observations from a re-analysis of the deposited data

How the results depend on the processing

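The differences that passed with group means alone or with the term kept their sign under all alternatives run. Some small differences that passed in no fit changed sign, among them Ddx58 between c915dup and WT cells, at 0.04 with the replicate block. Of the 34 genes, Isg15 passed between WT and EV cells; the count was 2 under median-ratio scaling, quantile normalization and the replicate block, 3 with the term for libraries numbered 1, 0 to 1 leaving out single libraries and 2 to 4 with both. Between c915dup and EV cells 2 passed, 0 with no filter or the 2 groups alone, 4 with the replicate block (Isg15 and H2-K1 added), 8 with the term, 5 without libraries numbered 1, 0 to 2 leaving out single libraries and 3 to 8 with the term as well. Between c915dup and WT cells 0 passed, 4 with the term, 2 without libraries numbered 1, 0 with the replicate block (7 at an unadjusted p under 0.05, and limma adjusted p of 0.083 for Ifit1, 0.177 for Gbp2 and Gbp3 and 0.212 for Isg15), 0 leaving out single libraries and 0 to 4 with the term as well. Between the libraries numbered 1 and the others 6 passed, 3 with no filter, where B2m, Ifit2 and H2-D1 remained. The cause was not tested. The replicate block changed no other call between WT and EV cells than Rsad2. In the c915dup comparisons the block fit rested on c915dup libraries 1 and 3, since library 4 shares its number with no other. Over all genes, 42 passed between WT and EV cells (24 with no filter, 27 with 2 groups alone, 96 with the block, 145 with the term, 83 without libraries numbered 1), 130 between c915dup and EV cells (66, 63, 227, 661 and 403) and 27 between c915dup and WT cells (10, 14, 137, 574 and 349, and 64 and 54 under median-ratio and quantile scaling). For libraries numbered 1, 2511 higher and 1196 lower became 1649 and 1794 under median-ratio scaling. Trim25 and Mx1 stayed under the filter of 1 FPKM and were not tested.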
